A study of Mus musculus with 2 samples.

Results

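Rods and cones reset their light response with a set of proteins that turn the cascade off and restore cGMP, and 10 genes of that machinery are described here. They were chosen by name from the 31053 genes of the expression matrix: Gucy2e and Gucy2f, Guca1a and Guca1b, Rgs9, Gnb5 and Rgs9bp, Grk1 and Rcvrn, and Pdc. All 10 were in the matrix, and each was followed across classes of barcodes and across the 3 sample tags.

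The measurements came from wild-type mouse retinas electroporated in vivo as neonates with a pCIG2 plasmid. All 3 plasmids express EGFP, 1 alone as Control and the others together with lamin A (Lmna) or with the lamin B receptor Lbr, both proteins of the nuclear envelope. Adult retinas were dissociated about 8 weeks later, and viable EGFP+ cells were sorted, stained with a lipid-anchored tag (MULTI-seq) per condition and pooled in 1 Chromium run. The promoter of the plasmid is not restricted to rods, electroporation reaches only some cells, and the sources used here do not say which strain or how many animals gave each pool. The labels name the cell type as rods and name 3 conditions, but tie no tag to a condition. Groups were taken from those labels alone, so the pools are called tag 1, tag 2 and tag 3, to which the deposited calls give 264, 316 and 41 barcodes. There was 1 pool per tag and no replicate, so no test was possible and no p-value is given. Intervals are at 95% and show counting error, so differences between animals are not in them.

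In the dark, the guanylate cyclases encoded by Gucy2e and Gucy2f make cGMP, which holds the channels of the outer segment open. Light lowers cGMP and then calcium, and the calcium sensors encoded by Guca1a and Guca1b, the cyclase-activating proteins, stimulate the cyclases when calcium is low. The kinase GRK1 (Grk1) phosphorylates the activated pigment and is held back by recoverin (Rcvrn) at high calcium, while RGS9, the beta subunit Gnb5 and the membrane anchor Rgs9bp form the complex that speeds GTP hydrolysis by transducin. Phosducin (Pdc) binds the beta-gamma subunits of transducin. Mutations in several of these genes cause inherited retinal dystrophies or slow recovery from light in people.

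On the mm10 build, the members are spread over several chromosomes, and GENCODE release 21 gives the following gene bodies. The cyclases are at chr11:69218117-69237036 (Gucy2e, minus strand) and chrX:142081160-142196931 (Gucy2f, minus). Guca1b at chr17:47385393-47392967 (plus) and Guca1a at chr17:47394558-47400584 (minus) are neighbours that face each other with their 3′ ends, 1590 bases apart. The complex is encoded at chr11:109225355-109298129 (Rgs9, minus), chr9:75306288-75345876 (Gnb5, plus) and chr7:35578993-35585582 (Rgs9bp, minus). Grk1 is at chr8:13405081-13421951, Rcvrn at chr11:67695326-67703333 and Pdc at chr1:150319417-150333906, all on the plus strand. Gnb5, Rcvrn and Pdc each overlap another annotated gene, and for Pdc 1 of its 2 overlapping genes (Gm37764) is on the same strand, so UMIs of those stretches may be divided.

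The upstream sequences of 4 members held the core motif of a photoreceptor transcription factor, and those 4 are printed. CRX, a homeodomain factor of photoreceptors, binds a core of the letters TAATCC, which was searched on both strands. RefSeq promoter entries (GRCm38.p6) were matched by symbol for 7 of the 10 members, and Guca1b, Rgs9bp and Rcvrn had none. Within 250 bases before the start, the core was present on either strand in 4 of the 7, against 6.25% of 32851 promoters of the same length. The letters TCAGCA, an arm of the site of the rod factor NRL, were on either strand in 1 of the 7, Rgs9, against 16.1% of promoters. A match is a description of letters, not of binding. The windows are printed 5′ to 3′ on the gene's strand, with the CRX core in capitals, and lie at chr11:69237023-69237272 (Gucy2e, minus), chrX:142196937-142197186 (Gucy2f, minus), chr17:47400607-47400856 (Guca1a, minus) and chr9:75306038-75306287 (Gnb5, plus).
Gucy2e: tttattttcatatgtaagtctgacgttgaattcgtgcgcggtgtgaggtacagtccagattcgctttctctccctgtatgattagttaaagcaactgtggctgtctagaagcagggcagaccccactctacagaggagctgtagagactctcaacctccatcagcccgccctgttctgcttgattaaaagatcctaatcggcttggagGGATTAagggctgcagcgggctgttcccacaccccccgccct
Gucy2f: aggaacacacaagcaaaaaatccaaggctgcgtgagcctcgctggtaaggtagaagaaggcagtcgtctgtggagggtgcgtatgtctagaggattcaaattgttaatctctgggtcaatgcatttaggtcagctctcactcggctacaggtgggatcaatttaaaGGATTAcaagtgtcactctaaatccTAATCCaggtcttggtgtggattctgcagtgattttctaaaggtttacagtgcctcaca
Guca1a: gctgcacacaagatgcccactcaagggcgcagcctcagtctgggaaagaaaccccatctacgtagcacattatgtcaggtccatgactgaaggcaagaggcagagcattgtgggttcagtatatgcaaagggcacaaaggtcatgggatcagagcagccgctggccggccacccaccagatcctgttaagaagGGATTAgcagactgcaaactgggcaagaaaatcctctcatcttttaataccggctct
Gnb5: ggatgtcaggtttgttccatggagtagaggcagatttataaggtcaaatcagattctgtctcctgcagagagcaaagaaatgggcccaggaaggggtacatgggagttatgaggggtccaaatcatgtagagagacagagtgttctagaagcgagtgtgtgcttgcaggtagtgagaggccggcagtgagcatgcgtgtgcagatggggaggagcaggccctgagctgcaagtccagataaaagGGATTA
The core began 42 bases before the start in Gucy2e, 84 and 59 bases before it in Gucy2f, 57 bases before it in Guca1a and 6 bases before it in Gnb5. In Gucy2f the pair of matches faced opposite ways, while the single matches of Gucy2e, Guca1a and Gnb5 all lay on the opposite strand. The windows of Rgs9, Grk1 and Pdc held no such letters.

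The expression matrix held 834 barcodes with 500 to 85822 UMIs (unique molecular identifiers, 1 per captured RNA molecule), with a median of 2395. Clustering that left the members out gave 675 rod-like, 10 cone-like, 45 bipolar-like, 87 Müller glia-like and 17 microglia-like barcodes. The rod-like name rests on detection of all 11 rod markers in each of 6 clusters, of which 1 had a rod marker among its 10 leading genes, while in the other classes 3 to 8 leading genes were markers of that class. Classes were unevenly spread over tags: 7 of the 10 cone-like barcodes were of tag 1, 31 of the 45 bipolar-like ones of tag 2, and 77 of the 87 Müller glia-like ones were not in the tag matrix. Median mitochondrial shares were 16.1% in rod-like and 48.6% in Müller glia-like barcodes, which also had the lowest median depth, 1167 UMIs. Levels are in CPM, the summed UMIs of a gene scaled to counts per 1e6 UMIs of the class.

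In rod-like barcodes the 10 genes spanned a wide range, from recoverin, with more UMIs than transducin's alpha subunit, down to the second cyclase. Rcvrn stood at 9354 CPM (9217 to 9492), Pdc at 7878 (7753 to 8005), Guca1a at 5103 (5002 to 5205) and Guca1b at 1599 (1543 to 1657). By comparison, the rod transducin alpha subunit Gnat1 stood at 5736 CPM, and the phosphodiesterase subunits Pde6a and Pde6b at 1278 and 1408 CPM. Calcium sensors and phosducin were thus the abundant end of the set. The enzymes and the GTPase complex were lower, with Rgs9 at 466 CPM (436 to 498), Gnb5 at 434 (405 to 465), Gucy2e at 311 (286 to 337), Rgs9bp at 287 (264 to 312), Grk1 at 279 (256 to 304) and Gucy2f at 116 (102 to 133). Neighbours in this order had separate intervals except Rgs9 and Gnb5, Gucy2e and Rgs9bp, and Rgs9bp and Grk1. UMIs are not divided by transcript length, so this is an order of captured molecules.

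Members that act at the same step did not have 1 level. Recoverin had 33.5 UMIs for each UMI of Grk1, the kinase it binds. Guca1a had 3.19 for each of Guca1b, and Gucy2e 2.67 for each of Gucy2f. Within the GTPase complex the levels were closer, and Rgs9 and Gnb5 differed by a ratio of 1.07. Rgs9bp, at 287 CPM (264 to 312), was below both with a separate interval.

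Detection in single barcodes ran in nearly the same order. A UMI of Rcvrn was present in 651 of 675 rod-like barcodes (96.4%), of Pdc in 643, of Guca1a in 587 (87.0%) and of Guca1b in 455 (67.4%). The other 6 were seen in 71 (Gucy2f, 10.5%) to 198 (Gnb5, 29.3%). As a background for such shares, Rcvrn was seen in 27.6% of Müller glia-like barcodes and 11.8% of microglia-like ones (median depths 1167 and 3372 UMIs), and Guca1a in 24.1% and in 0 of 17 (exact upper limit 19.5%). Gucy2f was seen in none of the other 4 classes.

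The UMIs of the low members were grouped in few cells. Among the 329 rods with a tag that passed the limits on cells, Gucy2e had 301 UMIs, all in 74 rods (22.5%), whereas independent UMIs spread by depth would have reached 57.0%. The same held for Grk1, with 244 UMIs in 20.7% of rods against 50.01%, and for Rgs9, with 466 UMIs in 34.0% against 71.6%. Their UMIs averaged 4.07, 3.59 and 4.16 per rod that had any. Guca1b was grouped as well, in 75.1% of rods against 97.0%, and so was Guca1a, in 93.9% against 99.9%. Gnb5 (33.7% against 65.5%), Rgs9bp (17.6% against 41.3%) and Gucy2f (8.51% against 16.6%) were grouped too. So the counting intervals of all these genes, Guca1a and Guca1b included, are too narrow. A rod without a UMI of these genes says little about that rod. Rcvrn and Pdc would be in nearly every rod either way, so this measure cannot show grouping for them. Whether their intervals are too narrow as well was not tested.

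**Figure D1:**
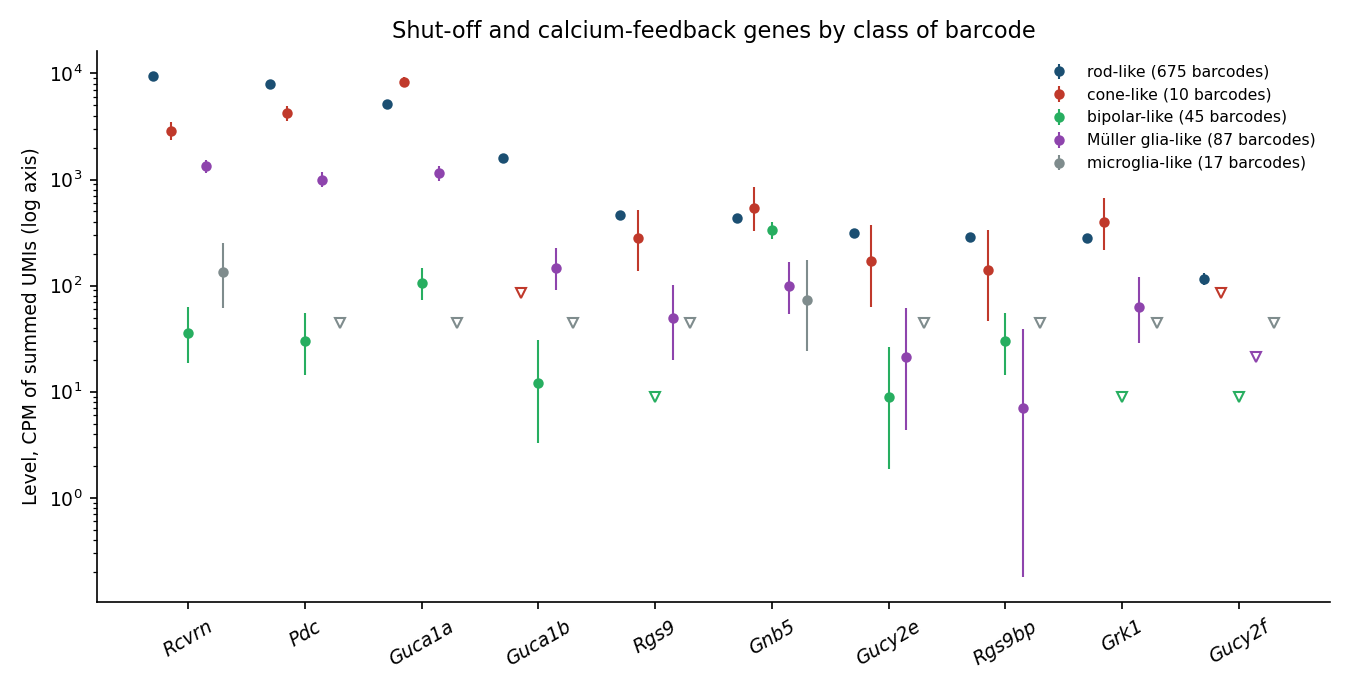
Level of each member in 5 classes of barcodes, in CPM of summed UMIs on a log axis, with exact Poisson 95% intervals. Open triangles mark classes with 0 UMIs, drawn at the level of 3 counts. Guca1a is the member that sits higher in cone-like than in rod-like barcodes with separate intervals, and Gnb5 is the member close to its rod level in bipolar-like barcodes.

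One deep barcode weighed on the low members. A rod-like barcode of tag 1 held 85822 UMIs, 4.50% of all rod-like UMIs, and had 84 UMIs of Gnb5, 84 of Rgs9bp, 75 of Grk1, 70 of Rgs9, 50 of Gucy2e and 33 of Gucy2f, the highest count of each. Without it Rgs9bp fell from 287 to 255 CPM and Grk1 from 279 to 251 CPM, while Guca1a stood at 5213 and Rcvrn at 9682 CPM. The order of all 10 genes was the same without it. It exceeded the limit on detected genes and is in none of the tag comparisons below except those with no limits on cells.

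Cone-like barcodes held this machinery in another balance than rods. Cones are born before birth, and by the study's account neonatal electroporation leaves them without plasmid, so cones are not cells that the EGFP+ sort should hold, and how these barcodes came into it was not tested. Guca1a was at 8309 CPM (7385 to 9317) in cones, 163% of its rod level, and was the 1 member higher there with separate intervals. Its paralog Guca1b had 0 UMIs in all 10 cones, so it was at least 18.8-fold lower than in rods. Across the 10 cone-like barcodes the UMIs of Guca1a ran from 0 to 104 with a median of 25, and 9 of 10 had at least 4. The single barcode at 0 had 75.8% mitochondrial UMIs.

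Recoverin and phosducin were lower in cones. Rcvrn, at 2892 CPM, was at 30.9% of its rod level (log2 ratio −1.69, −1.99 to −1.41), and had 0 to 42 UMIs per cone with a median of 4.5. Pdc, at 4225 CPM, was at 53.6% (log2 ratio −0.89, −1.14 to −0.67), with 0 to 36 UMIs and a median of 10. Both were seen in the same number of cones as Guca1a, 9 of 10.

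In cones the calcium sensor of the cyclase thus outnumbered recoverin, the reverse of rods. Of the UMIs of Rcvrn, Pdc and Guca1a together, Guca1a had 53.9% (49.6 to 58.1) in cones and 22.8% (22.4 to 23.2) in rods. Rcvrn had 18.8% in cones and 41.9% in rods.

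**Figure D2:**
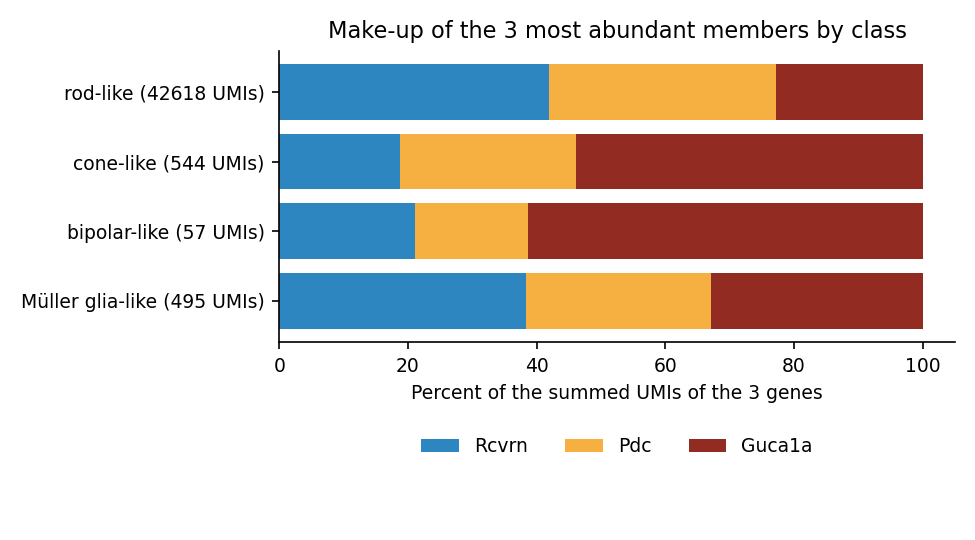
Share of each of the 3 most abundant members in their summed UMIs, in percent, for 4 classes of barcodes with the summed UMIs in brackets. Guca1a makes up 53.9% in cone-like and 22.8% in rod-like barcodes.

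The remaining members were too sparse in 10 cones to place. Grk1 had 14 UMIs (397 CPM, 217 to 666), Gnb5 19 (539 CPM), Rgs9 10 (284 CPM), Gucy2e 6 in 1 barcode and Rgs9bp 5. For all 5 the interval of the ratio to rods included no difference. Gucy2f had 0 UMIs, which allows a level of up to 85.1 CPM, against 116 in rods.

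Of the 4 members with at least 20 expected UMIs in both classes, 3 were lower by 1.5-fold or more and 1 was higher, against 40.3% lower and 9.44% higher among the 233 genes with as many. Without the deepest cone, which held 104 of the 293 Guca1a UMIs, the log2 ratio was 0.65 (0.43 to 0.85), just above the 1.5-fold line of 0.58. Without the 3 cone-like barcodes that had UMIs of the rod gene Gnat1 it was 0.52 (0.27 to 0.76), below that line, and Gnb5 went from 0.35 to −1.30 with 3 UMIs left (−3.80 to 0.03).

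Bipolar-like barcodes shared 1 member with photoreceptors. Gnb5, which also partners other RGS proteins in neurons, was at 332 CPM (273 to 400), 76.5% of its rod level, and had a UMI in 22 of 45 barcodes (48.9%, 33.7 to 64.2), at a median depth of 7778 UMIs. In Müller glia-like and microglia-like barcodes it was seen in 5.75% and 5.88%. Its partners in the rod complex were low or unseen: Rgs9 had 0 UMIs, at least 51.9-fold lower than in rods, and Rgs9bp 10 UMIs in 2 barcodes.

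The photoreceptor-restricted members were nearly absent from bipolar-like barcodes. Grk1 and Gucy2f had 0 UMIs, at least 31.0-fold and 12.9-fold lower. Rcvrn, which marks some cone bipolar cells as well as photoreceptors, had 12 UMIs (35.9 CPM) in 5 barcodes, 0.384% of its rod level. Pdc was at 29.95 CPM, Guca1a at 105 CPM with 35 UMIs in 7 barcodes, and Guca1b at 11.98 CPM. Of the 10 members 9, all but Gnb5, were lower by 1.5-fold or more and 0 were higher, against 38.6% lower and 20.1% higher of 2254 genes.

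Müller glia-like barcodes held all members but Gucy2f, at 2.45 to 22.7% of their rod levels. Rcvrn was at 1336 CPM, Guca1a at 1146, Pdc at 999 and Guca1b at 148 CPM. These UMIs sat in 24, 21, 26 and 6 of the 87 barcodes. The make-up leaned towards Guca1a: it had 7.76 UMIs for each of Guca1b, against 3.19 in rods, and was 88.6% (83.1 to 92.8) of the pair against 76.1% (75.4 to 76.9). All 9 members with enough UMIs were lower than in rods by 1.5-fold or more and 0 were higher, against 66.4% lower and 6.95% higher of 935 genes. Where these UMIs came from was not tested.

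Microglia-like barcodes were the emptiest. Rcvrn had 9 UMIs in 2 barcodes and Gnb5 5 in 1, and the other 8 members had 0 UMIs in 17 barcodes. Pdc was at least 178-fold and Guca1a at least 115-fold lower than in rods. All 7 members with enough expected UMIs were lower by 1.5-fold or more and 0 were higher, against 63.7% lower and 16.2% higher of 432 genes.

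Rod-like barcodes over the study's limit of 18% mitochondrial UMIs carried Gucy2f at a higher level. It had 92 UMIs in 279 barcodes over the limit and 67 in 369 barcodes within the limits, a log2 ratio of CPM of 1.26 (0.79 to 1.73). It was seen in 35 of the 279 (12.5%) and 31 of the 369 (8.40%). No barcode had more than 8 of its UMIs, and without the top barcode of each set the ratio was 1.24. Gucy2e, the other cyclase, went the other way at −0.40 (−0.69 to −0.12), seen in 14.7% over and 22.8% within.

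The members as a set shifted by as much as all genes did. The median log2 ratio of the 10 members was −0.29, equal to the −0.29 of 3258 nuclear genes, and it was −0.05 against −0.04 when mitochondrial UMIs were left out of the scale. Rgs9 was the lowest at −0.67 (−0.92 to −0.43), and Rcvrn, Pdc, Guca1a and Guca1b ranged from −0.37 to −0.26. By 1.5-fold or more, Gucy2f was higher and Rgs9 lower, against 6.72% higher and 29.2% lower among all genes. With mitochondrial UMIs left out, Rgs9 stood at −0.42, short of 1.5-fold, and Gucy2f at 1.501, while Rgs9bp at 0.54 (0.23 to 0.85) and Gnb5 at 0.32 (0.09 to 0.55) then had intervals above 0. With mitochondrial UMIs kept, these 2 were at 0.30 and 0.08 with intervals that included 0. Depth, cluster and tag differed between these sets as well, and their part was not tested.

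**Figure D3:**
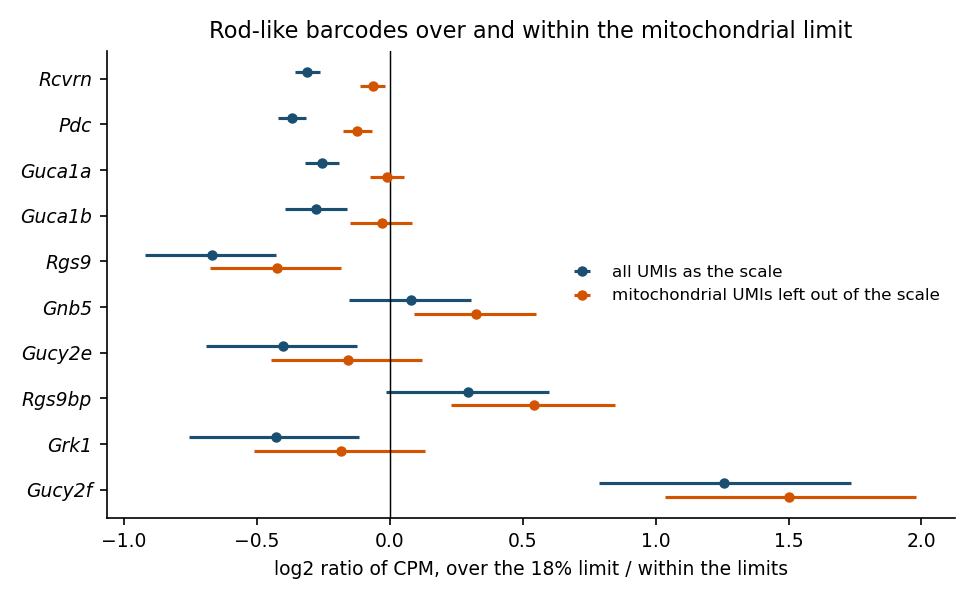
Log2 ratio of CPM of each member between rod-like barcodes over the 18% mitochondrial limit and those within the limits, with exact conditional 95% intervals, on 2 scales. Gucy2f is at 1.26 and 1.501, and Rgs9 is the lowest at −0.67 and −0.42.

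Between the 6 rod-like clusters the summed levels of the abundant members differed little, and those of some rare ones differed more. The highest and lowest clusters differed 1.30-fold for Rcvrn, 1.31-fold for Pdc, 1.32-fold for Guca1a and 1.41-fold for Guca1b. Grk1 ranged from 133 to 497 CPM (3.74-fold), Gucy2f 3.07-fold, Rgs9bp 2.87-fold and Gucy2e 2.51-fold. Rgs9 at 1.52-fold and Gnb5 at 1.46-fold were close to Guca1b. The lowest Gucy2f level, 63.3 CPM (29.0 to 120), rested on 9 UMIs, and the lowest Grk1 level on 48. Few UMIs grouped in cells widen such a range, so these ratios do not show that the rare members vary more. The clusters were drawn from the same cells, and the members were kept out of the clustering, so these are descriptions of unequal level.

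The tags were compared in rods that passed the limits on cells and were not called doublets, 181 of tag 1, 128 of tag 2 and 20 of tag 3. Their summed depths were 542867, 331067 and 54684 UMIs, with medians of 2900, 2620.5 and 2573.5 per rod, and mitochondrial genes held 10.6%, 14.0% and 11.5% of UMIs. The misexpressed genes had few UMIs in these rods. Lmna had 0, 8 and 0 UMIs in tags 1, 2 and 3 (0, 24.2 and 0 CPM). Lbr had 4, 11 and 20 UMIs, the last in 5 of 20 rods. Scaled to the depth of each pool, Lbr was at 7.37, 33.2 and 366 CPM, with an interval of 223 to 565 CPM in tag 3. Tag 3 rested on few cells, and its deepest rod held 8395 UMIs, 15.4% of the pool. Fewer transcripts per rod and a different mix of rods cannot be told apart in these sums.

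Recoverin and phosducin stayed within 1.5-fold across the tags. The 3 pools had Rcvrn at 10745, 10925 and 10460 CPM in tag order, and per rod had medians of 29, 25.5 and 26.5 UMIs. Pdc was at 9000, 8192 and 7443 CPM, with medians of 26, 20.5 and 20 UMIs. The ranges over single rods overlapped almost fully, with 0 to 98 UMIs of Rcvrn in rods of tag 1, 1 to 84 for tag 2 and 3 to 90 for tag 3. In tag 3 a single rod held 90 of the 572 Rcvrn UMIs, and the median level per rod was 7611 CPM there, against 10147 and 10855 CPM in tags 1 and 2. The Rcvrn log2 ratio of tag 3 over tag 1 was −0.04 in summed UMIs and −0.26 without the rod with the most Rcvrn UMIs in each tag. Leaving out the top rod of each gene also took the median over all genes from 0.08 to −0.26. The Rcvrn ratio was 0.09 without the deepest rod of each tag and 0.04 for the mean of CPM per rod. It was −0.51 with tags called from the tag counts, so its sign was not settled by these data.

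Guca1a was lower in tag 3 than in both other tags. Its level was 5931 CPM (5728 to 6140) for tag 1, 5929 CPM (5670 to 6198) for tag 2 and 3328 CPM (2862 to 3848) for tag 3. The median rod had 14 UMIs for tag 1 (range 0 to 68), 12.5 for tag 2 (range 0 to 50) and 9 for tag 3 (range 0 to 22). Of the 20 rods of tag 3, 18 had a UMI of Guca1a, so the share with a UMI (90.0%, against 93.4% and 95.3%) was not where the tags parted. Single rods overlapped widely between all 3 tags, and the UMIs of Guca1a came grouped in cells, so its intervals are too narrow. The study's text names Guca1a among changed genes of these libraries, so its place here is not independent of that choice.

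Guca1b, the partner sensor, was at 1627 CPM (1521 to 1737) for tag 1, 2051 CPM (1900 to 2211) for tag 2 and 1317 CPM (1030 to 1658) for tag 3. Rods had medians of 3, 4 and 2.5 UMIs, with a UMI in 132 of 181, 102 of 128 and 13 of 20. Its part of the Guca1a and Guca1b sum therefore differed, Guca1a holding 78.5% (77.2 to 79.7) for tag 1, 74.3% (72.6 to 76.0) for tag 2 and 71.7% (65.7 to 77.1) for tag 3. Tags 1 and 2 had separate intervals, and tag 3 overlapped tag 2 and not the share of tag 1. In tag 3 that rested on 2 rods with 15 Guca1b UMIs each: the share was 74.9% (68.7 to 80.4) without the deepest rod, which is 1 of them, and 80.0% (73.9 to 85.2) without both, and each of these intervals overlapped that of tag 1.

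**Figure D4:**
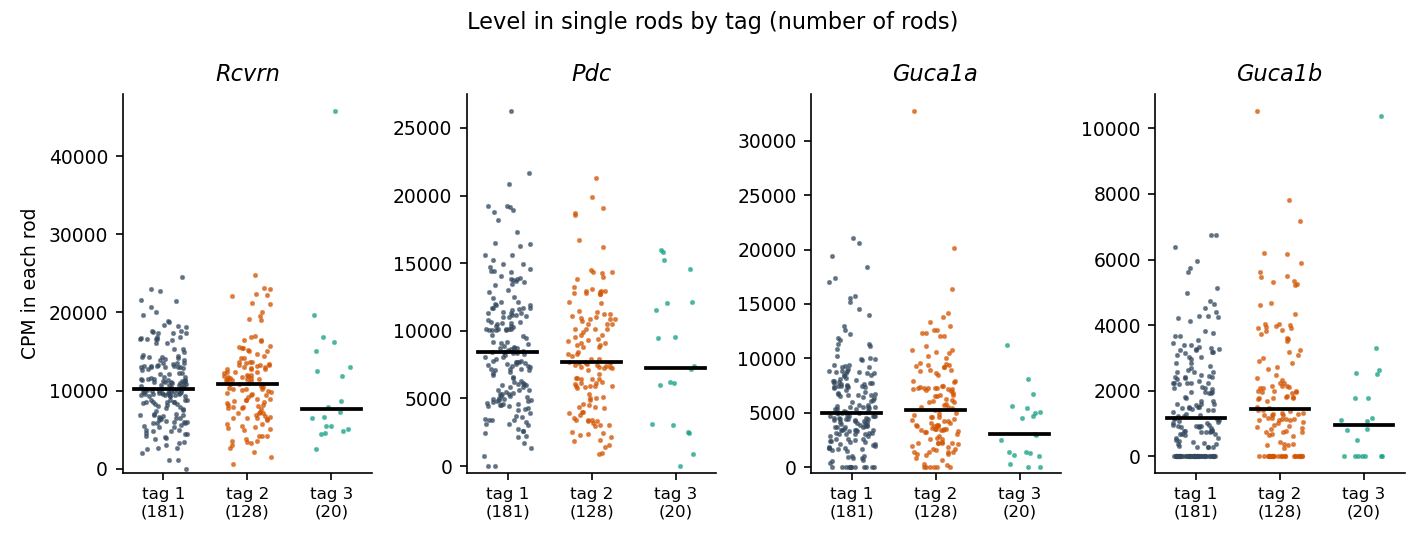
Level of Rcvrn, Pdc, Guca1a and Guca1b in single rods, in CPM of each rod, for the 3 tags with the number of rods in brackets. Points are rods, spread sideways at random, and bars are medians. The median Guca1a level per rod is 4986 CPM for tag 1, 5234 CPM for tag 2 and 3022 CPM for tag 3, and the clouds overlap.

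The levels of the GTPase complex in tag 3 rested on few rods. Rgs9 was at 479, 544 and 475 CPM, but 16 of the 26 tag 3 UMIs came from 1 rod. Gnb5 was at 378, 483 and 402 CPM, with 22 UMIs in 5 rods of tag 3. Rgs9bp was at 195, 224 and 91.4 CPM, the last from 5 UMIs in 1 rod. The tag 3 over tag 1 log2 ratio of Rgs9 was 0.01, but −1.25 without its top rod in each tag and 0.62 with tags called from the tag counts. That of Gnb5 was 0.12, but −0.55 without its top rod in each tag and −1.48 with tags called from the tag counts. With the top rod of each gene left out, the median over all genes was −0.26, against 0.08 with all rods. All 3 components were seen together in 5 rods of tag 1, 3 of tag 2 and none of tag 3.

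The kinase and the cyclases were sparse in tag 3. Gucy2e was at 352 CPM (304 to 405) for tag 1, 323 CPM (265 to 391) for tag 2 and 54.9 CPM (11.3 to 160) for tag 3, where 2 of 20 rods held 3 UMIs. Grk1 was at 269 and 287 CPM in tags 1 and 2, and at 54.9 CPM (11.3 to 160) in tag 3 from 3 UMIs in 1 rod. Gucy2f was at 75.5, 60.4 and 0 CPM. The 0 UMIs in tag 3 are bounded at 54.9 CPM by 3 counts, and the exact interval reaches 67.5 CPM, above the level of tag 2. The tag 3 over tag 1 log2 ratios of Gucy2e and Grk1 were −2.46 (−4.97 to −1.11) and −2.08 (−4.59 to −0.72), on fewer than 20 expected UMIs, and the UMIs of both came grouped in cells. Thinned to 1300 UMIs, 1 of 17 rods of tag 3 had Gucy2e (5.88%, 0.149 to 28.7), against 17.3% of 162 for tag 1 and 22.9% of 118 for tag 2, and before thinning it was seen in 2 of 20, 40 of 181 and 32 of 128 rods of tags 3, 1 and 2.

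Between tag 2 and tag 1, no member reached 1.5-fold, against 20.2% lower and 13.1% higher of the 2170 genes that had 20 or more expected UMIs. All 10 had enough UMIs. Their median log2 ratio was 0.06, with −0.06 over all genes. Guca1b at 0.33 (0.19 to 0.48) and Gnb5 at 0.36 (0.05 to 0.66) had intervals above 0, and Pdc at −0.14 (−0.20 to −0.07) below it. The UMIs of Guca1b and Gnb5 came grouped in cells, so their intervals are too narrow. A single rod held 20 of the 160 Gnb5 UMIs of tag 2. Without its top rod in each tag Gnb5 was at 0.23, where the median over all genes was −0.10. Guca1a was at 0.00 (−0.08 to 0.08) and Rcvrn at 0.02 (−0.04 to 0.08). With no limits on cells Gnb5 was at −0.04, Rgs9bp at −0.29 and Grk1 at −0.34, and when the rod-like barcode of 85822 UMIs was left out of that setting they were at 0.15, 0.03 and −0.05.

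Between tag 3 and tag 1, which shares its tag 1 rods with the previous comparison, 6 members had enough UMIs and 1 was lower by 1.5-fold or more, against 17.1% lower and 15% higher of 386 genes. That member was Guca1a at −0.83 (−1.06 to −0.62), a 1.78-fold difference, and 1 of 6 is near the share over all genes. The others were Pdc at −0.27 (−0.42 to −0.13), Guca1b at −0.30 (−0.67 to 0.04), Rcvrn at −0.04, Rgs9 at 0.01 and Gnb5 at 0.12. The median of the 6 was −0.16, against 0.08 over all genes. Without the deepest rod of each tag Guca1a was at −0.69 and Rgs9 at −1.08. Without the top rod of each gene Guca1a was at −0.98, where the median over all genes was −0.26. Counted at most once per rod, Guca1a was at 0.18, a scale on which a gene present in nearly every rod cannot show its level.

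Between tag 3 and tag 2, Guca1a was at −0.83 (−1.06 to −0.61) and Guca1b at −0.63 (−1.01 to −0.29). These 2 of the 6 members with enough UMIs were lower by 1.5-fold or more, against 17.3% lower and 23% higher of 370 genes. Rcvrn was at −0.06, Pdc at −0.14, Rgs9 at −0.17 and Gnb5 at −0.24, all with intervals that included 0. Guca1b was short of 1.5-fold in 4 alternatives, at −0.56 with no limits on cells, −0.41 with tags called from the tag counts, −0.40 for the mean of CPM per rod and −0.27 counted at most once per rod. Markers of other cell types gave the following sums: the 12 bipolar markers summed to 181, 181 and 183 CPM in rods of tags 1, 2 and 3, the 12 Müller glia markers to 776, 598 and 1006 CPM (8, 4 and 2 of the 12 detected, with Slc1a3 at 0 in all), and the 9 cone markers to 47.9, 12.1 and 54.9 CPM, Opn1mw being at 0 in all. Haemoglobin UMIs were at 1639, 148 and 36.6 CPM, and the nuclear RNA Malat1 was at 4928, 435 and 1884 CPM. Their part in the ratios was not tested.

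**Figure D5:**
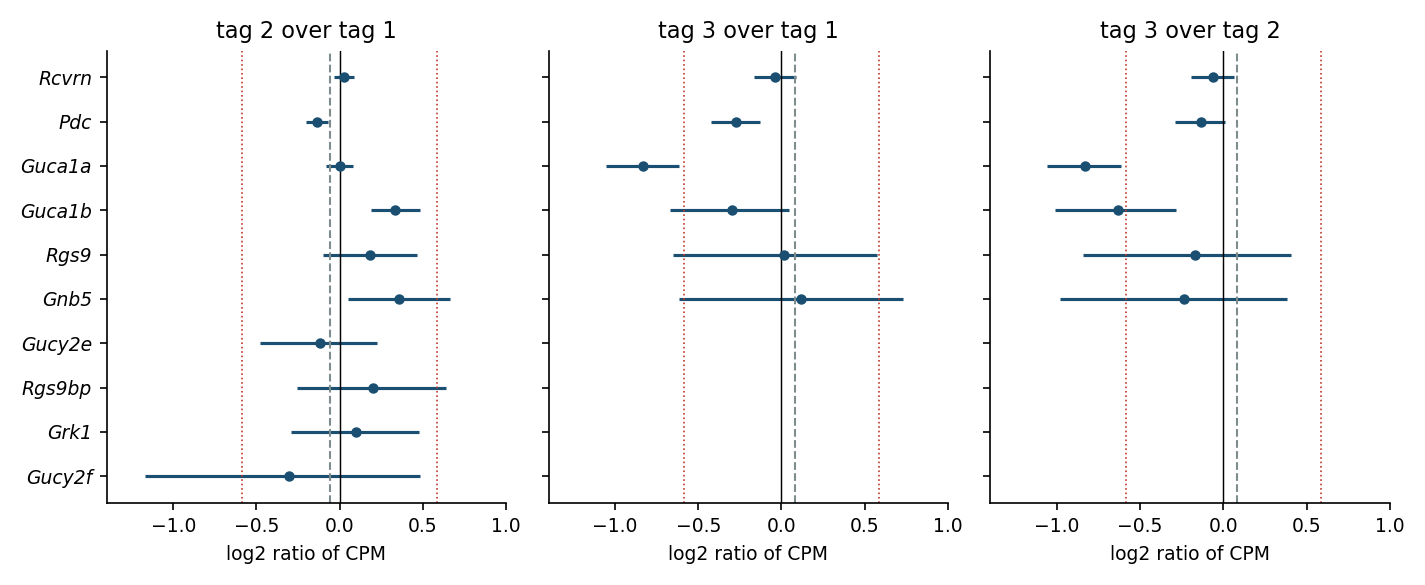
Log2 ratio of CPM in rods for the 3 pairs of tags, with exact conditional 95% intervals, for members that had 20 or more expected UMIs in each tag. Dotted lines mark 1.5-fold and the dashed line the median of all genes. Guca1a lies past the lower dotted line in both comparisons with tag 3, and no member does so in tag 2 over tag 1.

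Other genes of the cascade, from lists set by role, gave the members a frame. In tag 3 over tag 1, 6 rod activation genes had a median log2 ratio of −0.43 and 3 were lower by 1.5-fold or more, among them both catalytic phosphodiesterase subunits, Pde6a at −1.31 (−1.98 to −0.76) and Pde6b at −1.29 (−1.92 to −0.77). Of the 3 channel and exchanger genes 2 were lower, Cngb1 at −0.95. Of 4 shut-off partners with enough UMIs 1 was lower, Calm2 at −1.56 from 9 UMIs. Over all 386 genes with enough UMIs, 17.1% were lower and 15% higher by 1.5-fold or more. The study's text names Pde6b among changed genes as well, so its place here is not independent of that choice. The beta subunit Gnb3, used by cones and ON bipolar cells, was higher at 1.35, with 70 UMIs in tag 3. In tag 2 over tag 1 none of the 6 activation genes, 3 channel genes or 6 partners reached 1.5-fold, against 20.2% lower and 13.1% higher over all genes. Gnb3 was at −3.26 there, with 17 against 274 UMIs.

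In tag 3 over tag 2, 3 of 6 activation genes, 3 of 3 channel and exchanger genes and 1 of 4 partners were lower by 1.5-fold or more. Over all 370 genes with enough UMIs, 17.3% were lower and 23% higher by that much. The largest were Pde6b at −1.58 and Pde6a at −1.50, followed by Calm2 at −1.23, Cngb1 at −1.09 and the channel subunit Cnga1 at −0.80. None of the 3 lists had a gene higher by that much. Both tag 3 comparisons use the same 20 rods, so they are not separate evidence.

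Rods held a median of 5 of the 10 members in tags 1 and 2 and of 4 in tag 3, and no rod held all 10. Among all rod-like barcodes, 5 held all 10 and 10 held none. Within the 329 tagged rods, the 4 abundant members were weakly related across cells, with Pearson r from 0.02 (Rcvrn and Guca1b) to 0.21 (Rcvrn and Guca1a). These r are over cells of 1 library with sparse counts and carry no test.

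The genes whose levels ran most like the members over 12 pools of barcodes were found among 1660 candidates. Of these pools 7 were a class in a tag, 4 a class outside the tag matrix and 1 the rod-like barcodes that the deposited calls name doublets. The measure was Pearson r of log2(CPM + 10), and it follows mainly the step between rod-like pools and the rest. Pdc ran with Pde6g (r = 0.999) and Prph2 (0.992), Rcvrn with Gngt1 (0.995) and Sag (0.988), Grk1 with Mak (0.991) and Rgs9 with Arl6 (0.989) and Aipl1 (0.983). Guca1a, shared with cones, ran with Rtbdn (0.953), Pcmtd2 (0.946) and Clstn1 (0.945), and Guca1b with Faim (0.990). Gnb5, shared with bipolar-like barcodes, ran with Wdr61 (0.974), Hnrnpk (0.967) and Atp6v0b (0.960). For Gucy2e the closest was Dixdc1 (0.957) and for Rgs9bp Ift43 (0.955), while Gucy2f had too few UMIs to be placed.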

How the data were processed

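Sorted mouse retinal cells of 3 tagged conditions were sequenced in 1 pooled run. The authors made the deposited expression counts, UMIs per gene and barcode with no normalization, with Cell Ranger on mm10. The submitters' processing notes give version 6.1.2, the matrix header 3.1.0, with an annotation not given in the sources used here. The deposited tag matrix holds counts per tag and barcode, and the authors' table of calls gives each barcode's tag and the probability of a single tag, a fraction from 0 to 1 that was not used as a cut.

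From these files, barcodes were held to the study's limits (200 to 2500 detected genes, at most 18% mitochondrial UMIs), which 409 of 834 passed. Scrublet in scanpy 1.11.5, at an expected rate of 6%, called 29 doublets. All barcodes were clustered (2000 variable genes, 30 components, 15 neighbours, Leiden resolution 1) without the members, the genes the study names, haemoglobin, Malat1 and mitochondrial genes. Clusters were named for the class that led their 10 top genes by number of markers, and ties were settled by the share of markers detected in 25% of cells, of which 3 were required. Class levels used all barcodes, and tag comparisons used rods within the limits, less doublets. Tag pools hold 54684 to 542867 UMIs.

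Sums of UMIs have exact Poisson intervals, shares exact Clopper-Pearson intervals and log2 ratios exact conditional intervals with 0.5 UMIs added. A gene counted towards a comparison if both groups had 20 or more expected UMIs, and a size of 1.5-fold was used in place of a test. A count of 0 was bounded by 3 counts, also for each fold given as at least. The exact interval of a count of 0 reaches higher, so exact bounds on those folds would be smaller. For shares, rods were also thinned to 1300 UMIs, and 3, 10 and 19 shallower rods of tags 3, 2 and 1 left out. The ratio calculation was tested on simulated independent counts at the depths of tags 2 and 1. Grouping of UMIs in cells and the small pool of tag 3 were not part of that test. All 10 members and, of the other pathway genes, at most 6 per pair past 1.5-fold with an interval that excludes 0 were named, with up to 3 genes most like a member of 500 UMIs or more. Some genes of the pathway lists are not reported here, and the list counts leave them out. The members and lists were chosen with earlier results of these data known.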

Additional observations from a re-analysis of the deposited data

How the results depend on the processing

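No paired analysis was possible because each tag is 1 pool with no replicate number, and no replicate could be left out. Of the alternative values computed, 338 of 390 single-gene ratios and 242 of 290 class levels stayed within the interval of the reported value. Another 51 ratios lay outside it, and 1, Guca1a in tag 3 over tag 1, changed sign. The ratios include 30 with 1 UMI added, all within. They also include sparse members with wide intervals, such as Gucy2e in tag 3 over tag 1 (−4.97 to −1.11), so staying within says little there. With all cells of a tag taken regardless of type, the median log2 ratio of the members in tag 2 over tag 1 was −0.30. There 1 of 10 members was past 1.5-fold. In tag 3 over tag 1 the median was −0.54 with 4 of 9 members past 1.5-fold when no limits on cells were set. It was −0.60 with 3 of 5 without the top rod of each gene, and −0.56 with 3 of 7 over all cells. Over all genes the medians of these settings were 0.10, −0.26 and −0.05. The count of members past 1.5-fold was 2 of 7 with the doublets kept and 4 of 9 at 10 expected UMIs. It was 2 of 5 without the deepest rod of each tag (chosen after seeing the data). In tag 3 over tag 2 the median was −0.84 with 4 of 6 members past 1.5-fold without the top rod of each gene. It was −0.63 with 5 of 9 at 10 expected UMIs. Over all genes these medians were −0.26 and 0.04. The count there was 0 of 2 members at 1 count per gene and rod and 1 of 4 with tags called from the tag counts. At 1 count per gene and rod no member had enough counts in tag 3 over tag 1, and Guca1a was at 0.18. These lists differ in the number of members with enough UMIs. The share of all genes past 1.5-fold is not given for these settings, so the counts cannot be set against it. The cause of the other shifts was not tested. The 20 rods of tag 3 and the 10 cone-like barcodes limit what could be seen of the rare members. The exclusion of single deep barcodes and of cones with Gnat1 was chosen after seeing the data.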
